A study of Rattus norvegicus with 6 samples.

Results

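The Hedgehog and PTHrP loop was followed here as a set of 9 genes chosen by name for their place in the loop, of which 8 were found by gene name in the deposited files of 18923 genes. These are Ihh, which encodes the ligand Indian hedgehog, its receptors and binding proteins Ptch1, Smo and Hhip, the GLI transcription factors Gli1, Gli2 and Gli3, and Pth1r, the receptor of PTHrP. The ligand gene Pthlh was not analysed here, so the PTHrP side of the loop is described from its receptor and from signalling genes alone. All samples were wild-type primary chondrocytes from the cartilage of newborn female Sprague-Dawley rats (24 h old), used at passage 1 or 2 and grown in high-glucose DMEM with 10% FBS and penicillin-streptomycin. The RA group (n = 3) received 1 µM all-trans retinoic acid for 24 h, and the CON group (n = 3) was cultured for the same time without it. Retinoic acid is the active derivative of vitamin A and acts through nuclear receptors. The samples were described as independent within each group, but not whether they came from separate animals, so the tests measure the spread between these cultures. These are cultured monolayers, in which the ordered zones of the growth plate are not present.

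In the growth plate, prehypertrophic chondrocytes secrete Indian hedgehog, which signals to neighbouring chondrocytes and to the perichondrium and sustains the production of PTHrP near the end of the bone. PTHrP then acts through its receptor Pth1r, a G protein-coupled receptor that raises cAMP, to hold chondrocytes in the proliferating state and delay hypertrophy. Cells receive the hedgehog signal when the ligand binds Patched, which then ceases to inhibit Smoothened, so that GLI proteins activate their targets. Gli1, Ptch1 and Hhip are widely read as transcriptional targets of the pathway, and Ptch1 and Hhip proteins in turn restrain it by binding the ligand.

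Of the 8 genes, 2 changed. Hhip was 3.18-fold higher in RA and Gli1 was 1.79-fold lower. Over all 13438 genes that passed the filter on low counts, 4.96% were called by the same rule (Benjamini-Hochberg adjusted p of less than 0.05, together with more than 0.58 between the groups on the log2 scale), with 2.67% called higher and 2.29% called lower in RA. By the adjusted p alone the same 2 of the 8 genes passed, beside 9.82% of all genes (5.31% higher and 4.5% lower). An unadjusted p under 0.05 was reached by 5 of the 8 genes (Hhip and Gli3 higher, Ihh, Ptch1 and Gli1 lower), beside 24% of all genes (12.3% higher and 11.7% lower). Ihh and Ptch1 had negative and Gli3 a positive log2 fold change without being called, while Smo, Gli2 and Pth1r lay close to 0. The CPM values of the CON and RA samples did not overlap for 5 of the 8 genes (Ihh, Hhip, Ptch1, Gli1 and Gli3), beside 31.9% of all genes tested. The median log2 fold change of the 8 genes was -0.09, and that of all tested genes -0.0057.

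**Figure D1:**
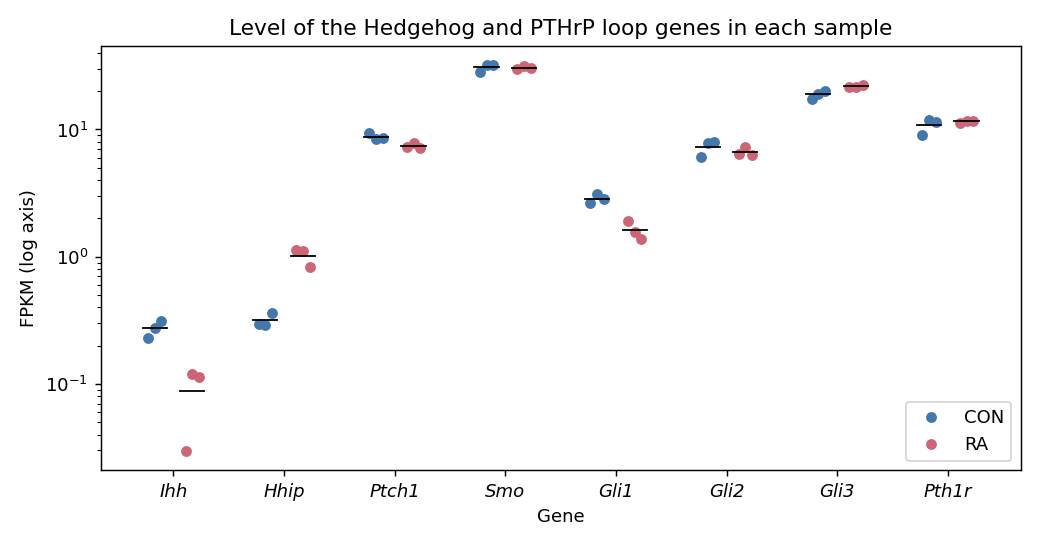
FPKM of each gene in each sample on a log axis, with CON in blue, RA in red and a black line at the mean of 3 samples. Hhip lies between 0.83 and 1.13 FPKM in RA and at no more than 0.362 in CON, whereas Gli1 lies at no more than 1.92 in RA and at no less than 2.64 in CON.

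Total counts ran from 30170909 to 38007486 in CON and from 29370025 to 30952882 in RA. CON sample 1 stood apart from the other CON samples, with a chi-square per degree of freedom of 39.8 and 63.5 against CON samples 2 and 3 over genes with more than 20 counts in a pair, compared with 6.55 to 8.27 for the other pairs of replicates. All 10 chondrocyte marker genes examined were detected. Their summed level was 6560 to 8600 FPKM in CON and 4090 to 4410 in RA, and 9 of the 10 were called lower in RA, against 2.29% of all genes.

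The levels of the 8 genes, in FPKM and therefore comparable between genes of different length, spanned a wide range. In CON the order of the mean levels was Smo (30.8), Gli3 (18.9), Pth1r (10.8), Ptch1 (8.77), Gli2 (7.33), Gli1 (2.87), Hhip (0.315) and Ihh (0.273). The samples of Pth1r and Ptch1 overlapped, as did those of Hhip and Ihh, so the ranges order neither pair. Within each CON sample Hhip was above Ihh, at low counts of both. In RA the order of the means was the same, with Smo at 30.6, Gli3 at 21.8, Pth1r at 11.6, Ptch1 at 7.43, Gli2 at 6.67, Gli1 at 1.62, Hhip at 1.02 and Ihh at 0.0878. Among neighbours in RA the samples of Ptch1 and Gli2 overlapped, while those of Hhip and Ihh were now apart. Receptor and GLI transcripts were thus present well above the ligand. The Ihh mean stood at the percentile 5.48 of all tested genes in CON and at 0.908 in RA, and that of Smo at 81.4 and 80.9.

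Ihh (ENSRNOG00000018059), the only hedgehog ligand gene that passed the filter, was at the edge of detection. Its deposited counts were 16, 19 and 27 in CON samples 1, 2 and 3, and 2, 8 and 8 in RA samples 1, 2 and 3. The corresponding levels were 0.229, 0.277 and 0.313 FPKM in CON and 0.0297, 0.12 and 0.114 in RA. All RA samples lay below all CON samples, and RA sample 1 was the lowest. The log2 fold change was -1.63 (SE 0.468, 95% interval -2.71 to -0.56), and edgeR's quasi-likelihood test gave an unadjusted p of 0.00769 and an adjusted p of 0.0669, so the difference did not pass the threshold. Ihh passed the filter on low counts through its CON samples alone. Summed over each group, 62 counts in CON against 18 in RA correspond to a 3.14-fold lower rate in RA (exact binomial 95% interval 1.83 to 5.63), an interval that covers counting error only and not the spread between cultures. Without CON sample 1 the value was -1.75 and passed (adjusted p = 0.0473, edgeR), while without RA sample 1 it was -1.23 (adjusted p = 0.159), and the adjusted p lay between 0.0473 and 0.163 over all alternatives.

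Dhh, the gene of Desert hedgehog, had between 0 and 4 counts in each library and did not pass the filter. A count of 0 allows up to 3 counts, or 0.0789 to 0.102 CPM at these depths. Pth2r, which encodes a second receptor of the PTH family, had at most 2 counts in any library.

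Hhip (ENSRNOG00000018268) encodes a membrane-anchored and secreted protein that binds hedgehog ligands and keeps them from Patched. Its counts were 25, 24 and 38 in CON samples 1, 2 and 3, and 93, 89 and 71 in RA samples 1, 2 and 3. In FPKM these were 0.295, 0.288 and 0.362 in CON, and 1.13, 1.1 and 0.83 in RA. Every RA sample was more than double the highest CON sample. The rise from 0.315 ± 0.0409 to 1.02 ± 0.166 FPKM (SD, n = 3 each) gave a log2 fold change of 1.67 (SE 0.225, 95% interval 1.15 to 2.19, edgeR adjusted p = 0.00253), and Hhip ranked 326 of the 13438 tested genes by p. With any 1 of the 6 samples omitted the call held, and the value ran from 1.60 to 1.80. By group sums, 87 counts in CON against 253 in RA gave a ratio of 3.19 (exact binomial 95% interval 2.49 to 4.12, counting error only). Even in RA the level remained low, at the percentile 15.9 of all tested genes.

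Ptch1 (ENSRNOG00000019354) encodes the main hedgehog receptor. It was measured at 9.34, 8.48 and 8.5 FPKM in CON samples 1, 2 and 3, and at 7.3, 7.82 and 7.16 in RA samples 1, 2 and 3. The groups did not overlap, and CON sample 1 was the highest. The log2 fold change of -0.25 (SE 0.0689, 95% interval -0.41 to -0.10) was small and did not pass, with an adjusted p of 0.0563 from edgeR (0.0267 to 0.236 over the alternatives). Its counts were high, with a total of 6507 in CON and 5020 in RA, so the interval was narrow and excluded the threshold of 0.58.

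The sequences before the transcription starts of Ptch1 and Hhip are shown because both are read as targets of GLI factors, and Hhip was called higher in RA while Ptch1 did not pass the test. They were taken from RefSeq (build GRCr8), whose promoter table held 6 of the 9 genes, namely Pth1r, Ptch1, Smo, Gli2, Gli3 and Hhip. Each stretch covers the 250 bases before the annotated start on the + strand, at chr17:1555321-1555570 for Ptch1 and chr19:44767788-44768037 for Hhip. Capitals mark the GLI binding consensus GACCACCCA, here on the opposite strand.
Ptch1: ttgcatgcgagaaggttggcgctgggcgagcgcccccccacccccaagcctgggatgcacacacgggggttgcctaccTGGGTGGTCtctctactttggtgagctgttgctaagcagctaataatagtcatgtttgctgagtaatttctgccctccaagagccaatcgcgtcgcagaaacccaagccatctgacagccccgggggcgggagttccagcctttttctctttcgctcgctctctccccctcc
Hhip: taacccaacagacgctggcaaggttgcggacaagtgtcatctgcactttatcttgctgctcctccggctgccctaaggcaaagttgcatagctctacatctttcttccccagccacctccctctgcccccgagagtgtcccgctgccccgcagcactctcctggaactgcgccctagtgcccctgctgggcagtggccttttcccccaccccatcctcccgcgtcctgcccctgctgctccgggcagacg
In Ptch1 the consensus lay 172 to 164 bases before the start. Windows of 300 bases, which end 50 bases after the start, were searched on both strands for GACCACCCA, which was present in 129 of 33469 promoters (0.385%) and, among the 6 genes, in Ptch1 only. The half-site of retinoid receptors, AGGTCA, occurred in 16.2% of all promoters and in none of the 6. Its direct repeats, in which AGGTCA is followed by AGGTCA after 5 or 2 bases of any kind, occurred in 3 and 4 of all promoters and likewise in none of the 6. A match or its absence describes these letters in this window only.

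Smo (ENSRNOG00000008332), the gene of the transducer Smoothened, was the most abundant of the 8 genes. It had 28.4, 32 and 31.9 FPKM in CON samples 1, 2 and 3, and 29.9, 31.4 and 30.4 in RA samples 1, 2 and 3. The RA samples lay within the range of the CON samples. The log2 fold change of -0.02 had a 95% interval of -0.18 to 0.14 (edgeR adjusted p = 0.881), and its sign was not stable, with 0.02 without CON sample 3.

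Gli1 (ENSRNOG00000025120) encodes a GLI factor that acts as an activator and is itself induced by the pathway, so that its transcript is used as a readout of hedgehog signalling. Its levels were 2.64, 3.1 and 2.86 FPKM in CON samples 1, 2 and 3, and 1.92, 1.55 and 1.37 in RA samples 1, 2 and 3. Every RA sample was below every CON sample. The mean of Gli1 fell from 2.87 ± 0.228 FPKM to 1.62 ± 0.281 FPKM (SD of 3 samples in either group), and the log2 fold change was -0.84 (SE 0.145, 95% interval -1.17 to -0.51, edgeR adjusted p = 0.00818). It remained called whichever sample was omitted, at values between -0.98 and -0.74, but not in a limma fit on log2(FPKM + 1), where the value was -0.57. In bulk samples, fewer cells of a type and less RNA per cell cannot be told apart, which applies to each gene described here.

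Gli2 (ENSRNOG00000007261) encodes the main activator of the initial response. Its levels were 6.13, 7.88 and 7.99 FPKM in CON samples 1, 2 and 3, and 6.45, 7.22 and 6.34 in RA samples 1, 2 and 3. The groups overlapped, with CON sample 1 the lowest of all, and the log2 fold change was -0.15 (95% interval -0.41 to 0.11, edgeR adjusted p = 0.458). Without CON sample 1 it was -0.27 (adjusted p = 0.0169), still within the threshold of 0.58.

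Gli3 (ENSRNOG00000014395) encodes the factor that is processed to the principal repressor when no ligand is present. It was measured at 17.5, 19.1 and 20.1 FPKM in CON samples 1, 2 and 3, and at 21.6, 21.5 and 22.4 in RA samples 1, 2 and 3. The RA samples were all above the CON samples by a narrow margin. The log2 fold change of 0.19 (SE 0.0711, 95% interval 0.03 to 0.36) did not pass (edgeR adjusted p = 0.141).

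The make-up of the GLI transcripts was compared within samples, which removes any scaling between libraries. Gli1 made up 10.1%, 10.3% and 9.24% of the summed GLI FPKM in CON samples 1, 2 and 3, and 6.41%, 5.14% and 4.57% in RA samples 1, 2 and 3. Gli3 made up 66.6%, 63.5% and 64.9% in CON and 72.1%, 71% and 74.4% in RA. For both shares the groups did not overlap, whereas the share of Gli2 did overlap, at 25.1% ± 1.51 in CON against 22.2% ± 1.51 in RA (SD of 3 samples in either group). The sum itself was 29.1 ± 2.46 FPKM in CON against 30.1 ± 0.1 FPKM in RA (SD of 3 samples in either group). The shares were computed after the levels were known and restate them on another scale, so no test is given. The shares describe transcripts, and processing of the GLI proteins was not measured.

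**Figure D2:**
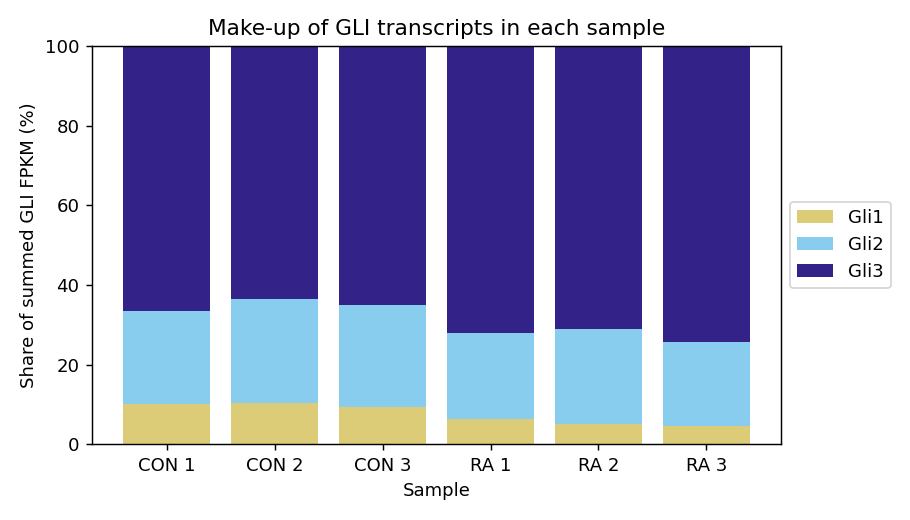
Share of Gli1, Gli2 and Gli3 in the summed FPKM of the GLI genes, in percent, for each of the 6 samples. The Gli1 share is between 9.24% and 10.3% in CON and between 4.57% and 6.41% in RA, and the Gli3 share is higher in each RA sample than in any CON sample.

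Pth1r (ENSRNOG00000020948) stood for the PTHrP arm. Its levels were 9.09, 11.9 and 11.4 FPKM in CON samples 1, 2 and 3, and 11.3, 11.7 and 11.7 in RA samples 1, 2 and 3. The groups overlapped, and the one low sample was CON sample 1. The log2 fold change was 0.08 (SE 0.107, 95% interval -0.16 to 0.33, edgeR adjusted p = 0.677), and -0.03 without CON sample 1. The interval leaves room for changes of up to 0.33 on the log2 scale and excludes the threshold of 0.58 in both directions.

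**Figure D3:**
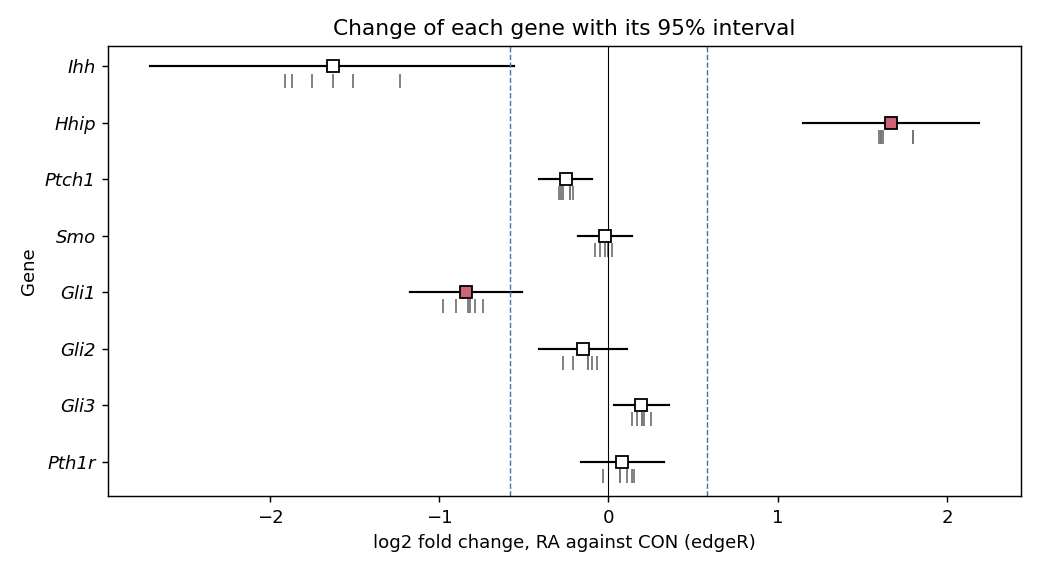
Log2 fold change of each gene (square, red where called) with its 95% interval, and below it the values from the 6 fits that each left out 1 sample (grey ticks); dashed lines mark the threshold of 0.58. Only Hhip at 1.67 and Gli1 at -0.84 are called, and the widest interval is that of Ihh, from -2.71 to -0.56.

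Other genes of the hedgehog pathway were taken from a list of 40 that covers ligand release, co-receptors and regulators of the GLI factors. Of the 38 that were tested, 1 was called higher and 2 lower in RA (7.89%, against 4.96% of all genes), and the median log2 fold change was 0.08. At an unadjusted p under 0.05 in edgeR 6 were higher and 4 lower, against 24% of all genes in either direction. Arrb1, the gene of a beta-arrestin that takes part in the traffic of Smoothened, rose from 2.93, 4.41 and 3.71 FPKM in CON to 11.7, 10.1 and 10.9 in RA samples 1, 2 and 3. Its log2 fold change was 1.55 (SE 0.142, edgeR adjusted p = 3.29e-04), and the groups were well separated. Scube1, which encodes a secreted and cell-surface protein of the family that helps release hedgehog ligands, fell from 6.99 ± 0.524 FPKM to 2.91 ± 0.0569 FPKM (SD of 3 samples in either group), and its log2 fold change was -1.28 (SE 0.0879, edgeR adjusted p = 9.21e-05). Gpc3, the gene of a glypican that competes with Patched for hedgehog ligands, fell by 0.66 on the log2 scale (SE 0.106, edgeR adjusted p = 0.0057). All 3 calls held whichever sample was omitted, and that of Gpc3 was lost in a limma fit on log2(FPKM + 1), where the value was -0.55.

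The co-receptors Cdon, Boc and Gas1, which present hedgehog ligands to Patched, were all expressed above Ptch1. Cdon was at 55.2 ± 0.608 FPKM in CON against 46.5 ± 1.27 FPKM in RA (SD of 3 samples in either group), and its log2 fold change was -0.26 (edgeR adjusted p = 0.0147), short of the threshold of 0.58. Boc had a log2 fold change of -0.07 (95% interval -0.21 to 0.08). Gas1 had 21.7, 68.7 and 73.9 FPKM in CON samples 1, 2 and 3, and 96.6, 100 and 108 in RA samples 1, 2 and 3. CON sample 1 was thus far below the others, the log2 fold change of 0.88 was not called (edgeR adjusted p = 0.194), and without CON sample 1 it was 0.49 (adjusted p = 2.27e-04), which is within the threshold of 0.58. Of the inhibitors and scaffolds downstream of Smoothened, Sufu, which retains GLI proteins in the cytoplasm, had a log2 fold change of 0.36 (95% interval -0.11 to 0.82), and Kif7, a kinesin of the cilium tip, 0.25 (95% interval 0.01 to 0.50), and neither was called. For Sufu, too, CON sample 1 was the lowest sample, at 3.4 FPKM, and without it the value was 0.15.

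A list of 27 genes named in the field as hedgehog responsive gave 22 tested genes other than the 8 above, of which 2 were called higher and 1 lower (13.6%, against 4.96% of all genes), with a median log2 fold change of 0.09. At the unadjusted threshold 5 were higher and 1 lower, against 24% of all genes. Ccnd1, which encodes cyclin D1, rose from 90.7 ± 3.55 FPKM to 180 ± 6.2 FPKM (SD of 3 samples in either group), and its log2 fold change was 0.98 (SE 0.0551, edgeR adjusted p = 3.77e-05). Bmp4, a gene of the BMP family of growth factors, rose by 0.64 (SE 0.0696, edgeR adjusted p = 8.64e-04), and Grem1, the gene of the BMP antagonist gremlin, fell by 0.85 (SE 0.108, edgeR adjusted p = 0.00185) on the same log2 scale. Many signals besides hedgehog act on these genes, and their direction differed from that of Gli1 in 2 of the 3.

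Of 49 tested genes of PTHrP receptor signalling, 2 were called higher and none lower (4.08%, against 4.96% of all genes), with a median log2 fold change of 0.02. At an unadjusted p under 0.05 in edgeR 11 were higher and 6 lower (against 24% of all genes in either direction), DESeq2 also called 2 in all, and at an adjusted p under 0.05 without the fold-change threshold 6 were higher and 1 lower. Sik1, a salt-inducible kinase gene that is itself induced by cAMP, rose from 1.42, 2.13 and 1.98 FPKM in CON to 3.3, 3.03 and 3.63 in RA samples 1, 2 and 3, a log2 fold change of 0.83 (SE 0.159, edgeR adjusted p = 0.0129). This call was lost without RA sample 1 (0.84, adjusted p = 0.0551) and without RA sample 3 (0.76, adjusted p = 0.0677). Slc9a3r1, which encodes the scaffold NHERF1 that binds the tail of Pth1r, had a log2 fold change of 0.62 (SE 0.12, edgeR adjusted p = 0.014) and, of the 6 fits with 1 sample omitted, stayed called in that without CON sample 3. Its value where the call was lost was 0.51 without CON sample 1, 0.61 without CON sample 2, and 0.62, 0.63 and 0.60 without RA samples 1, 2 and 3. Further down the same route, Gnas, the gene of the stimulatory G protein, had a log2 fold change of -0.01 (95% interval -0.14 to 0.12) whose sign was positive with library sizes alone. Sik3, the salt-inducible kinase gene needed for hypertrophy, had 0.04 (95% interval -0.15 to 0.22) and was at -0.05 without CON sample 1. Hdac4, the deacetylase gene through which PTHrP signalling restrains Mef2c, had -0.05 (95% interval -0.38 to 0.27), with the opposite sign without CON sample 2 or RA sample 1, and Mef2c had -0.26 (95% interval -0.42 to -0.10, edgeR adjusted p = 0.0561).

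Hedgehog signals pass through the primary cilium, in which Smoothened and the GLI proteins accumulate. Of 38 tested genes of the cilium and of its transport, none was called by edgeR, DESeq2 or limma (against 4.96% of all genes in edgeR), 2 had an unadjusted p under 0.05 in edgeR (against 24% of all genes), and 1 of them (Ift20) passed the adjusted p alone, as did 9.82% of all genes. The log2 fold changes ran from -0.39 to 0.24, with a median of -0.07.

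**Figure D4:**
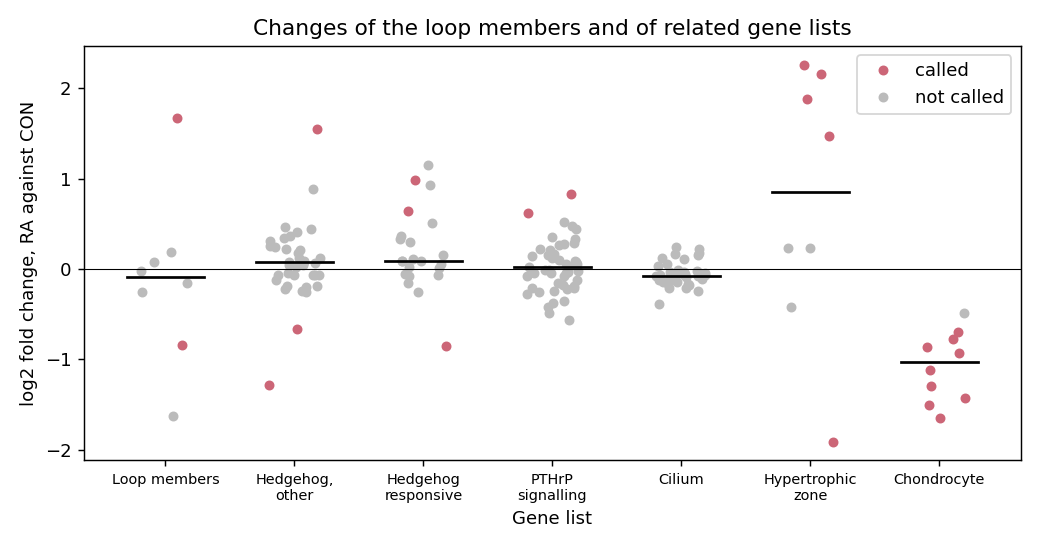
Log2 fold change of the tested genes of the loop and of 6 related lists (points, red where called). Loop genes are plotted under the loop only. Ihh and Pth1r are thus left out of the hypertrophic zone list, whose median with them is 0.23. A black line marks each median, and the spread along the x axis within a list is for display. The medians of the hedgehog, PTHrP and cilium lists lie between -0.07 and 0.09, that of the chondrocyte list at -1.03 and that of the hypertrophic zone list at 0.85.

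Ihh and Pth1r also mark the prehypertrophic zone. The other 8 genes of a list for the prehypertrophic and hypertrophic zones were all tested, and 4 were called higher and 1 lower (62.5%, against 4.96% of all genes). Their summed level was 902 to 1010 FPKM in CON and 3330 to 3610 in RA. The genes named from this list and from the list for the resting zone and articular side were chosen after their values were seen. Spp1, the gene of the matrix protein osteopontin, had 845, 919 and 820 FPKM in CON samples 1, 2 and 3, and 3300, 3060 and 3260 in RA samples 1, 2 and 3, and made up most of that sum. It rose by 1.88 on the log2 scale (SE 0.056, edgeR adjusted p = 2.34e-06). Mmp13, a collagenase gene of late hypertrophic cartilage, rose by 2.26 (SE 0.153, edgeR adjusted p = 8.77e-05) and Ibsp, the gene of bone sialoprotein, by 1.47 (SE 0.239, edgeR adjusted p = 0.00622) on the same scale. Col10a1, the collagen gene of hypertrophic chondrocytes, had 0.287, 0.178 and 0.129 FPKM in CON samples 1, 2 and 3, and 0.742, 1.22 and 0.712 in RA samples 1, 2 and 3. Its log2 fold change was 2.16 (SE 0.372, edgeR adjusted p = 0.00807), and it passed the filter on low counts through its RA samples alone. Alpl, the gene of the phosphatase of mineralizing cartilage, had a log2 fold change of -0.42 (edgeR adjusted p = 0.0219) and was not called, since it was within the threshold of 0.58. At an unadjusted p under 0.05 in edgeR, 5 genes of the list were higher and 2 lower (against 24% of all genes in either direction). Panx3, a channel gene of prehypertrophic cells, was the gene called lower. It had 0.376, 0.671 and 0.304 FPKM in CON and 0.111, 0.0843 and 0.16 in RA samples 1, 2 and 3, a log2 fold change of -1.91 (SE 0.42, edgeR adjusted p = 0.0243), and it passed the filter through its CON samples alone, as Ihh did. The Panx3 call was lost when CON sample 2 (-1.52) or RA sample 1, 2 or 3 (-1.86, -1.72 and -2.19) was omitted.

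The resting zone, from which PTHrP is secreted, was followed together with the articular side of cartilage by 7 markers found, of which 5 were tested. Of these, 2 were called lower in RA and none higher (40%, against 4.96% of all genes), and at an unadjusted p under 0.05 in edgeR 3 were lower and 0 higher (against 24% of all genes in either direction). The third was Wif1, the gene of a secreted Wnt inhibitor, with a log2 fold change of -0.55 (edgeR adjusted p = 0.0134), within the threshold of 0.58, but called when CON sample 1 (-0.62) or RA sample 2 (-0.63) was omitted. The summed level was 526 to 571 FPKM in CON and 174 to 185 in RA, most of it from Ucma, which encodes a secreted cartilage matrix protein. Ucma fell by 1.77 (SE 0.0618, edgeR adjusted p = 4.39e-06) and Erg, a transcription factor gene of articular chondrocytes, by 1.36 (SE 0.119, edgeR adjusted p = 2.63e-04) on the log2 scale. Sfrp5 was at 0 in every library. The part of these zone markers in the results for Ihh, Gli1 and Hhip was not tested.

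Markers of other cell types were set beside these results, since hedgehog reception is also a property of perichondrial and fibroblast-like cells. Of 9 fibroblast, perichondrium and tendon markers, 1 (Twist2) was called higher and none lower (11.1%, against 4.96% of all genes), with 3 higher and 2 lower at an unadjusted p under 0.05 in edgeR (against 24% of all genes in either direction), and their summed level was 3720 to 4920 FPKM in CON and 4830 to 5080 in RA. None of the 3 tested osteoblast markers, of 6 found, was called by edgeR or had an unadjusted p under 0.05, at 2420 to 3420 FPKM in CON and 3370 to 3590 in RA. Nearly all of that sum was Col1a1, a collagen gene that is also in the fibroblast list, while the other osteoblast markers were at no more than 1.2 FPKM in any sample. The 8 macrophage markers summed to 14 to 14.9 FPKM in CON and 16.4 to 17.8 in RA, most of it from Cd14 (11.9 to 13.5 and 14.5 to 15.8 FPKM), with Adgre1 at 0 in all but 1 library. The 5 endothelial markers found summed to 5.57 to 8.05 and 6.28 to 6.83 FPKM, most of it from Egfl7 (5.28 to 7.97 and 6.04 to 6.73 FPKM), with Cdh5 at no more than 1 count in any library. For skeletal muscle, with 7 markers found, the sums were 9.72 to 12 and 9.48 to 11.3 FPKM, and 1 of 4 tested genes was called higher (Myod1) and 1 lower (Tnnt3), which is 50% against 4.96% of all genes. Myod1 passed the filter on low counts through its RA samples alone. These marker calls were lost when single samples were omitted, that of Myod1 for CON sample 2 (1.76) or RA sample 1 or 2 (1.8 and 1.89), that of Tnnt3 for CON sample 2 (-0.98) or RA sample 1 or 2 (-0.9 and -0.89), and that of Twist2 for CON sample 3 (0.9) or RA sample 1, 2 or 3 (0.92, 0.87 and 0.95). The part of fibroblast-like cells, and of the fall of the chondrocyte markers, in the changes of Gli1 and Hhip was not tested.

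The genes whose pattern over the 6 samples was most like that of Gli1 and of Hhip were found by the root mean square difference of centred log2 CPM (with 0.5 added to each CPM). For Gli1 these were Adam33 with a difference of 0.06, Hs6st2 with 0.09 and AABR07037878.2 with 0.09, and 886 genes lay within 0.3 of it. Hs6st2, a heparan sulfate sulfotransferase gene, went from 32.4 to 18.5 FPKM on average, a log2 fold change of -0.83, close to that of Gli1 at a much higher level. Adam33 had -0.99, and its call was lost when CON sample 2 (-0.94) or RA sample 2 or 3 (-0.98 and -0.91) was omitted. AABR07037878.2 had -1.95 and was not called (adjusted p = 0.0566, edgeR), and it passed the filter through its CON samples alone. For Hhip the nearest were Spry4 with a difference of 0.1, Mapk13 with 0.1 and Kcnn4 with 0.11, and 172 genes lay within 0.3. Their log2 fold changes were 1.45, 2.46 and 1.54, and all 3 were called, although Mapk13 passed the filter on low counts through its RA samples alone. The 0.5 added to each CPM shrinks differences of genes near or below that level. The likeness of AABR07037878.2 (mean CPM 0.524 in CON and 0.134 in RA) to Gli1 and of Mapk13 (0.264 and 1.48) to Hhip depends on it, and their fold changes differ from those of Gli1 and Hhip. Hhip itself was near that level in CON (mean CPM 0.875), so the likeness of Spry4 and Kcnn4 to it also depends on the 0.5. With 2 groups of 3 samples this measure mainly reflects the difference between the groups.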

How the data were processed

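Poly(A) RNA of 3 CON and 3 RA cultures was sequenced. The table that the authors deposited per sample holds a whole-number read count and an FPKM value for every gene. Per the submitters' processing notes, HISAT2 and HTSeq 0.13.5 were used with the build Rnor_6.0. The annotation release and the use of strand are not given in the sources used here. Dividing counts by the deposited FPKM showed these to be scaled by gene length and by the summed counts of the sample.

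Counts were tested with edgeR 4.0.16 in R 4.3.3 (glmQLFit and glmQLFTest, TMM normalization, filterByExpr with a minimum count of 10, no covariates, all 6 samples). Called genes had a Benjamini-Hochberg adjusted p below 0.05 over 13438 genes and a log2 fold change beyond 0.58, which is 1.5-fold. SEs and 95% intervals were derived from the F statistic. CPM values carry the TMM factors. FPKM served for levels. Where several identifiers share a symbol, that with the highest mean count was used, and each gene of the loop had 1 identifier. Promoters were read from RefSeq tables of GRCr8, and no coordinates of Rnor_6.0 are given.

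Genes were named by a rule: the loop genes, related ligands and receptors, called genes of 4 lists (at most 6 a list), 9 direct regulators, and the 3 nearest patterns of each called loop gene. Outside the rule, cell type and zone markers and Ift20 were named after their values were seen. Of the genes so named, 1 is not reported here. The members and lists were chosen with earlier results of these data known. The tests were checked on simulated counts. Alternatives were other filters, other normalizations, DESeq2 1.42.0, limma 3.58.1 on log2(FPKM + 0.1), log2(FPKM + 1) and log2(FPKM + 0.01), the replicate number as a block, each sample left out, and other call rules.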

Additional observations from a re-analysis of the deposited data

How the results depend on the processing

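Hhip stayed called and higher in RA under each alternative that tested it, and Gli1 stayed lower in RA under all of them and called in all but limma on log2(FPKM + 1), where its value was -0.57. Under that setting 1 of the 8 loop genes was called, and 434 genes in all against 667. When genes had to reach an FPKM of 1 in 3 samples, Hhip and Ihh were not tested, so 1 of 6 loop genes was called. With no fold-change threshold 1319 genes were called, among them 5 of the other hedgehog, 7 of the PTHrP and 1 of the cilium genes, and with an unadjusted p and the fold change 1017 were, Ihh (-1.63) included. With each sample left out in turn, called genes numbered 480 to 755, loop genes 2 to 3, other hedgehog genes 3 to 3, hedgehog responsive genes 3 to 4 and PTHrP genes 0 to 2. Log2 fold changes then ran from -1.91 to -1.23 for Ihh, from -0.03 to 0.15 for Pth1r, from -0.08 to 0.02 for Smo, from -0.05 to 0.09 for Sik3, from -0.28 to 0.02 for the endothelial marker Egfl7, from -0.18 to 0.03 for Hdac4 and from -0.04 to 0.02 for Gnas. Gnas was at 0.01 with library sizes only and in the 3 limma fits. The causes of these moves were not tested, apart from genes removed by a stricter filter. Same-numbered CON and RA samples deviated together weakly or not at all (r = 0.161, -0.014 and 0.047 for numbers 1, 2 and 3). The value of number 1 was the highest of all pairs, and differently numbered samples ran from -0.192 to 0.147. Not every sample correlated best with its own number, so the numbers were not taken as pairs. With the replicate block 684 genes were called, the same number of loop genes, and 4 other hedgehog genes against 3, with Gas1 added at 1.03 (adjusted p = 0.0455, edgeR). Without the block the adjusted p of Gas1 was 2.27e-04 to 0.403 with each sample left out in turn. Dhh and Pth2r had too few counts to pass the filter, and Ihh passed it in CON only.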
